A study of Cicer arietinum with 8 samples.

Results

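The comparison described here set flowers of cold tolerant chickpea (Cicer arietinum) against flowers of cold susceptible chickpea in plants that were never stressed. It used the control channels of the flower hybridisations, and 10 distinct control channels of flowers were taken out of 44 distinct channels in the whole series. There were 12 such channel files, but replicate 3 of Tolerant2 and of Susceptible2 held the same values as replicate 1 and was dropped. The tolerant class had 5 channels, 3 of Tolerant1 (Sonali) and 2 of Tolerant2 (ILC 01276), and the susceptible class had 5 channels, 3 of Susceptible1 (Amethyst) and 2 of Susceptible2 (DOOEN).

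The series set cold-treated against control plants of each genotype on a spotted cDNA array, with 1 condition per dye. The control plants behind every channel used here, 5 per genotype, stayed in a glasshouse at 15 to 25 °C and received no treatment. Their flowers, buds and early pods were collected together at the time when the treated plants had spent 7 nights at 5 °C, a treatment that had begun 2 weeks after flowering. Each class was represented by only 2 genotypes, so what belongs to tolerance and what belongs to a genotype cannot be told apart beyond those genotypes. In such mixed organs, fewer cells of a type and less RNA per cell cannot be told apart either.

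Cold during flowering aborts flowers and pods in chickpea, and genotypes differ in how well they set pods in cool weather. A tolerant plant may hold protective transcripts at a higher level before any cold, or may differ only once cold arrives, and the control channels address the former case. Dehydrins, metallothioneins, chaperones and lipid transfer proteins are well-known classes of protective transcript in cold-treated plants. Photosynthesis and ribosomal transcripts report on the green tissue and on growing tissue in a floral sample.

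The array carried 768 features, each spotted 6 times. Chickpea cDNAs made up 559 of these, cDNAs of grasspea 156, resistance gene analogs of lentil 41 and controls 12. Values are log2 signal after background correction, averaged over the unflagged spots of a feature and quantile scaled between channels, so a difference of 1 is 2-fold. A tolerant and a susceptible channel with the same genotype number and replicate number formed a pair. Genotype set 1 was Tolerant1 with Susceptible1 (3 pairs), and genotype set 2 was Tolerant2 with Susceptible2 (2 pairs). Of the 756 features other than controls, 509 had at least 3 complete pairs and were tested. These were 445 of the 559 chickpea features, 64 of the 156 grasspea features and 0 of the 41 lentil features. Only 7 of the lentil features had an unflagged value in any of the 10 channels. The remaining 247 features had 1 or 2 complete pairs (115), values but no complete pair (66) or no value at all (66). No feature was above background in all 5 channels of one class and in none of the other.

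The share of unflagged spots ran from 42.3% to 75.8% per channel, and the median signal was 1.76 to 7.27 times the local background. The lowest ratios, 1.79 and 1.76, belonged to replicate 1 of Tolerant1 and Susceptible1. Replicate 2 of these genotypes had the lowest median signals, and among the channels used here GenePix was named only in its image headers. Both channels of a pair shared dye and quantification period. The channels of set 2 were all quantified in a later period than those of set 1. The 2 channels of a pair correlated across features at r = 0.87 to 0.95, whereas channels of the same genotype correlated at 0.65 to 0.93. Genes are not independent replicates, and these r describe the channels only. On a scale joint with the leaf control channels, 27 of 27 cytosolic ribosomal and translation features had a higher mean in flowers than in leaves, whereas 9 of 28 light harvesting and photosystem features did. Ripening, post-floral and seed inhibitor features had a higher mean in flowers for 3 of 7. The array holds no gene that marks a particular floral organ.

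No transcript was called different between the classes. Limma's moderated test with the pair as a block, adjusted after Benjamini-Hochberg over the 509 features, called 0 features (0%), and the smallest adjusted p was 0.713. At an unadjusted p under 0.05 there were 24 features (4.72%), 20 higher in the tolerant class (3.93%) and 4 lower (0.786%). Of the 24, 18 were of unknown or unclear identity, as were 233 of all 509. A paired t-test on the same values gave 39 features (7.66%) at that unadjusted threshold, 1 of them at least 2-fold (0.196%), and 0 after Benjamini-Hochberg adjustment. The study's own t-test set stressed against unstressed plants after another normalization, and was not repeated here. The study's methods call the replicates biological, but nothing in the labels ties a channel to separate plants, so these p-values measure the spread between the channels, which may be technical. A log2 difference of at least 1 was reached by 1 feature. The class differences had an SD of 0.28 across features and a median SE of 0.23.

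The precision set the size of difference that could have been seen. The 95% confidence interval had a median half-width of 0.54 on the log2 scale. For 406 of the 509 features (79.8%) the whole interval lay between -1 and 1, so a 2-fold mean difference between these channels was outside it. The intervals take channel pairs as replicates, so they do not bound the difference for other genotypes of a class. For 52 features (10.2%) it lay between -0.5 and 0.5. The other intervals reached above 1 for 62 features and below -1 for 48. Brighter features were measured more closely, with 85.5% of the 255 features of higher mean level and 74% of the 254 of lower level inside 2-fold.

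The class difference went with the position of the feature on the slide. The array was printed in 4 grids, and the median difference was 0.23 in grid 1, 0.20 in grid 2, -0.09 in grid 3 and -0.17 in grid 4. All 20 features that were higher at an unadjusted p under 0.05 lay in grids 1 (15 features) and 2 (5 features), and all 4 that were lower lay in grid 4. The steepest pair was replicate 2 of set 1, with medians of 0.25, 0.38, -0.46 and -0.65 from grid 1 to grid 4. Replicate 1 of set 1 ran the other way, with 0.21, 0.21, 0.29 and 0.62. The cold channels, which were hybridised to the same slides, had median class differences of 0.07, 0.13, -0.08 and -0.24 in the 4 grids, whereas the leaf control channels had -0.10, -0.10, -0.08 and -0.07. An alternative added after the data had been seen centred each channel within each print grid. It called 0 of the 509 features, and left 3 at an unadjusted p under 0.05, 2 of which were among the 24. By construction such centring also removes any class difference shared by the features of a grid. Values after this centring are given below as grid-centred values.

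**Figure D1:**
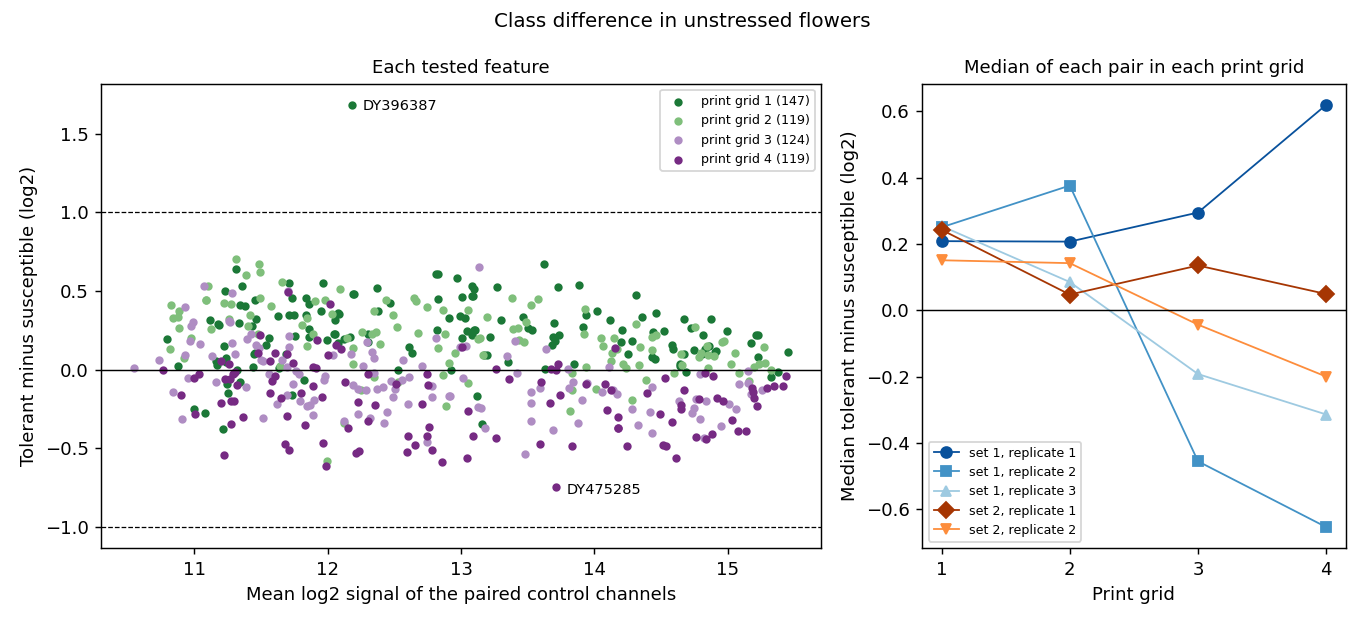
Left, the tolerant minus susceptible difference (log2) of each of the 509 tested features against its mean log2 signal, coloured by print grid, with dashed lines at 2-fold. Right, the median difference of each pair in each print grid. Features of grids 1 and 2 sit mostly above 0 and those of grids 3 and 4 mostly below, and DY396387 is the one feature beyond 2-fold.

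The feature with the smallest p was DY396387, a grasspea cDNA similar to an RNA-binding protein, chosen here after its values were seen. Its log2 signal was 12.61 in Tolerant1 replicate 1 against 10.81 in Susceptible1 replicate 1. In replicate 2 of the same genotypes it was 14.50 against 12.21. In replicate 2 of set 2 it was 11.95 against 10.99, and replicate 1 of Tolerant2 (11.06) had no partner. The tolerant channel was higher in 3 of 3 complete pairs, although the ranges of the classes overlapped. The difference was 1.68 (SE 0.32, 95% interval 0.90 to 2.46, limma adjusted p = 0.713), and the grid-centred value was 1.53. Its signal was at least 2 times background in 4 tolerant and 2 susceptible channels. The cold channels of flowers held RNA of other plants, which were cold-treated. There the tolerant class was lower by a log2 difference of -1.003 (SE 0.30, limma adjusted p = 0.908). DY396387 was not tested in leaves.

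The lowest difference of the 509 belonged to DY475285, photosystem I reaction centre subunit VI-2, part of the complex that passes electrons to ferredoxin in the light. Its log2 signal in Tolerant1 was 12.20 and 13.30 in replicates 2 and 3, against 13.46 and 13.76 in Susceptible1. In Tolerant2 it was 13.37 and 14.48, against 14.22 and 14.88 in Susceptible2. The tolerant channel was lower in 4 of 4 pairs, and the ranges of the classes overlapped. The difference was -0.74 (SE 0.22, 95% interval -1.26 to -0.22, limma adjusted p = 0.713). Its spot lay in print grid 4 and the grid-centred value was -0.50. The cold channels gave -0.74 (SE 0.25) and leaves -0.22 (SE 0.16), neither past the threshold (limma adjusted p = 0.908 and 0.814).

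Transcripts with 1 sign in every pair were next examined among the 327 features measured in all 5 pairs. The tolerant channel was higher in all 5 pairs for 31 features (9.48%) and lower in all 5 for 6 (1.83%). None of the 327 had its 5 tolerant channels all above or all below its 5 susceptible channels (0%). Of the 31, 18 lay in print grid 1 and 12 in grid 2, and the 6 were split between grids 3 and 4. The 10 of the 31 with the smallest p differed by 0.40 to 0.61, and 8 of these were among the 233 of unknown or unclear identity. After grid centring the same 10 lay between 0.19 and 0.39.

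DY475425 encodes ribosomal protein L23, a component of the large (60S) subunit of the cytosolic ribosome. In the tolerant class its log2 signal was 14.96, 14.18 and 14.56 in Tolerant1 and 14.50 and 14.54 in Tolerant2. In the susceptible class it was 14.50, 13.68 and 13.92 in Susceptible1 and 14.20 and 14.08 in Susceptible2. The pair differences ran from 0.30 to 0.63, a narrow range, but the channels of the classes overlapped. The mean was 0.47 (SE 0.15, 95% interval 0.13 to 0.82, limma adjusted p = 0.713), against a grid-centred value of 0.25. In cold channels it was 0.21 (SE 0.24) and in leaves -0.23 (SE 0.23), with limma adjusted p = 0.912 and 0.834.

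DY396360 is a grasspea cDNA for a poly(A)-binding protein, which coats the tails of messenger RNAs and aids their translation. Its log2 signal was 12.24, 12.93 and 12.19 in Tolerant1 and 12.26 and 12.54 in Tolerant2. It was 11.61, 12.38 and 11.75 in Susceptible1 and 12.17 and 11.85 in Susceptible2. The tolerant channel was higher by 0.09 to 0.69 in the 5 pairs. The mean was 0.48 (SE 0.16, limma adjusted p = 0.713) and the grid-centred value 0.26. It was 0.03 (SE 0.19) in cold channels and -0.63 (SE 0.21) in leaves, with limma adjusted p = 0.97 and 0.712.

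The unknown transcripts DY475171 and DY475303 had means of 0.61 (SE 0.20) and 0.56 (SE 0.18), with limma adjusted p = 0.713 for both. DY475171 was higher by 1.21, 0.26 and 0.59 in set 1 and by 0.85 and 0.13 in set 2. DY475303 was higher by 0.54, 1.05 and 0.63 in set 1 and by 0.41 and 0.15 in set 2. Their grid-centred values were 0.39 and 0.34. The rest of the 10 were DY475281 (0.61), DY475522 (0.55), DY475260 (0.53), DY475446 (0.47), CA0908 (0.46) and DY475106 (0.40), each of unknown or unclear identity and each with limma adjusted p = 0.713.

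Among the 6 features lower in every pair, EB085024 of unknown identity had the smallest p. Its log2 signal was 14.75, 12.90 and 13.46 in Tolerant1 and 14.08 and 14.76 in Tolerant2. It was 15.11, 13.24 and 13.77 in Susceptible1 and 14.55 and 15.12 in Susceptible2. The pair differences lay between -0.48 and -0.31, while the level itself varied over more than 2-fold between replicates of Tolerant1 and of Susceptible1. The mean was -0.37 (SE 0.15, limma adjusted p = 0.713), the grid-centred value -0.27, and the value in leaves -0.98 (SE 0.28, limma adjusted p = 0.594). The others were CA0820 (-0.41), DY475437 (-0.35), DY475432 (-0.32) and EB085057 (-0.25), all unknown, and DY475498, a glucosyltransferase, which attaches glucose to small molecules or hormones (-0.31), with limma adjusted p = 0.713 to 0.74.

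**Figure D2:**
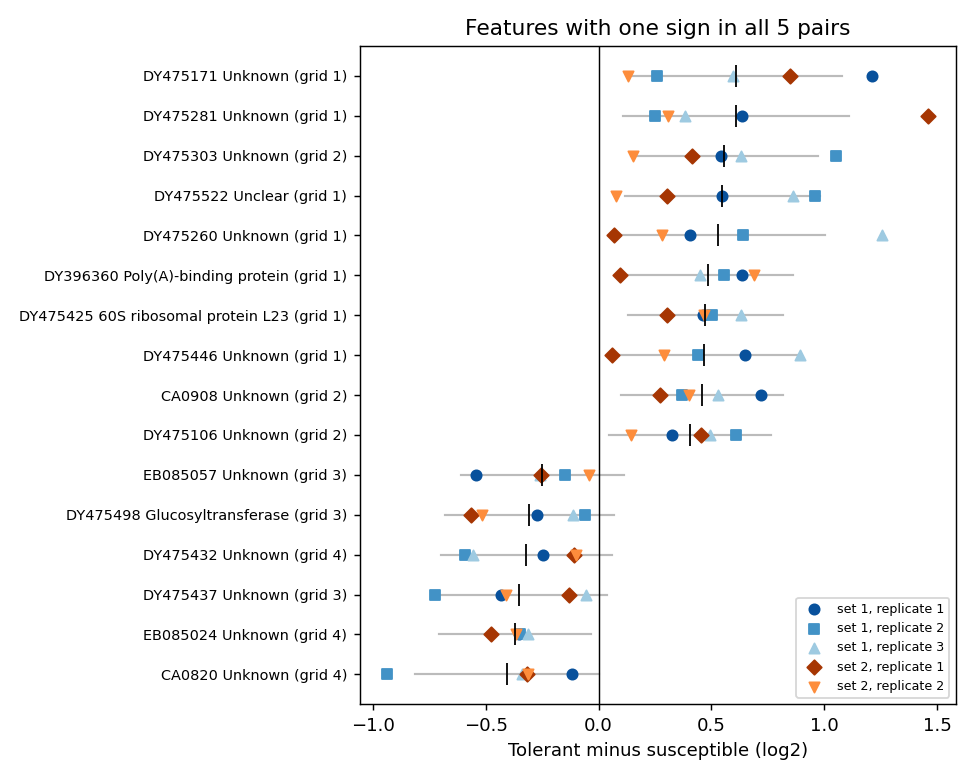
Tolerant minus susceptible difference (log2) in each pair, for the 10 features with the smallest p among those higher in every pair and the 6 lower in every pair. Points are pairs, black ticks the fitted means and grey lines their 95% confidence intervals, and the print grid stands after each name. All 10 higher features lie in grids 1 and 2 and all 6 lower features in grids 3 and 4.

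**Figure D3:**
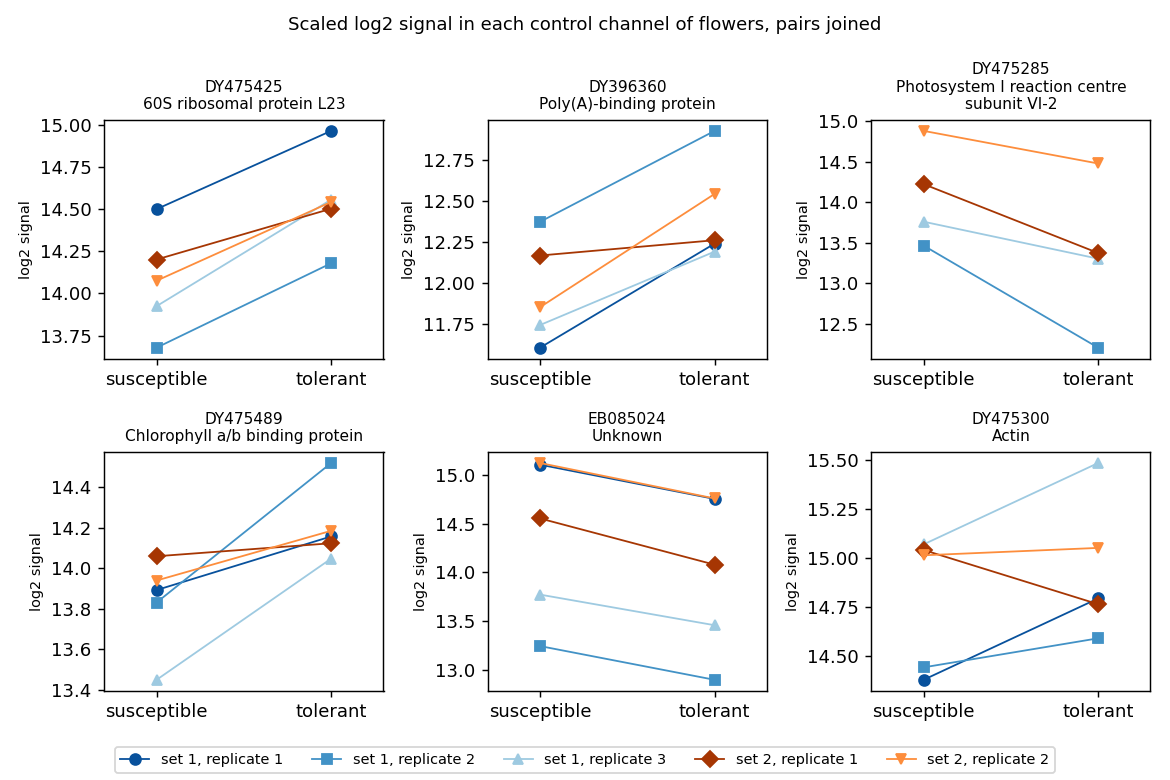
Scaled log2 signal of 6 features in each control channel of flowers, with the 2 channels of a pair joined. All 5 lines rise for L23, the poly(A)-binding protein and the chlorophyll a/b binding protein and fall for EB085024, as do the 4 lines of DY475285, while the classes overlap, and for actin 4 rise and 1 falls.

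Actin (DY475300), the reference transcript of the study's PCR, had a log2 signal of 14.79, 14.59 and 15.48 in Tolerant1 and 14.76 and 15.05 in Tolerant2. It was 14.38, 14.44 and 15.07 in Susceptible1 and 15.04 and 15.01 in Susceptible2. The difference was 0.15 (SE 0.17, 95% interval -0.25 to 0.55, limma adjusted p = 0.848), with a grid-centred value of -0.07, so its direction turned with the scaling.

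The gene lists were then described by their counts and medians, beside a median of 0.06 over all 509 features, of which 296 were higher and 213 lower in the tolerant class. After grid centring, which sets the median of each grid near 0 by construction, the median of all features was -0.0087, with 249 higher and 260 lower. No member of any list was called (0% of all features tested). The protective lists came first. Of 6 tested dehydration, cold and salt stress features 1 was higher and 5 lower in the tolerant class, with a median of -0.16 and 0 at an unadjusted p under 0.05, and the counts were 1 and 5 after grid centring too. The cold-induced dehydrin DY475092, chosen after its values were seen, encodes a protein that shields membranes and enzymes as cells lose water. It had a log2 signal of 11.19, 11.13, 12.67 and 11.04 in tolerant channels and 11.21, 11.05, 11.73 and 11.62 in the paired susceptible channels. Its difference was 0.10 (SE 0.27, limma adjusted p = 0.932), and its 95% interval ran from -0.54 to 0.75. The dehydrin-cognate DY396324 differed by -0.54 (SE 0.41, 3 pairs, limma adjusted p = 0.778, grid-centred -0.44). The endoxyloglucan transferase DY475207, which remodels the cell wall, differed by -0.34 (SE 0.24, limma adjusted p = 0.741, grid-centred -0.10).

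Among 4 tested chaperone features 3 were higher with a median of 0.11, but 1 was higher after grid centring, with a median of -0.10. DNAJ-like DY475488, a co-chaperone, is treated with the genotype sets below, and heat shock protein DY475278 differed by 0.20 (SE 0.16), with a grid-centred value of -0.0087. Of 11 redox and metal binding features 6 were higher and 5 lower, with a median of 0.14 that became -0.08 after grid centring, with 3 higher and 8 lower. Within this list metallothionein MT-2 DY475049, a small metal-binding protein, differed by 0.25 (SE 0.17, grid-centred 0.0279) and catalase DY396413, which breaks down hydrogen peroxide, by 0.40 (SE 0.27, 3 pairs, grid-centred 0.51). Limma adjusted p was 0.74 and 0.741.

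The 14 tested pathogenesis-related and defence features split evenly, 7 higher and 7 lower, with a median of 0.09 and a grid-centred median of -0.06. The wound-induced protein DY475111 differed by -0.40 (SE 0.18) and disease resistance response protein DY396276 by -0.59 (SE 0.28), with limma adjusted p = 0.713 for both. Their grid-centred values were -0.36 and -0.34. Of 10 water channel and transporter features 7 were higher, and 5 after grid centring. Potassium channel regulatory factor DY475169 was higher in all 5 pairs, by 0.11 to 0.98, with a mean of 0.44 (SE 0.19, limma adjusted p = 0.713). Aquaporin DY475124, which lets water through membranes, differed by -0.49 (SE 0.22). The grid-centred values of these 2 features were 0.23 and -0.25.

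Counts in the photosynthesis lists went with print grid, a pattern whose cause was not tested. Of 23 light harvesting and photosystem features 13 were higher and 10 lower, with a median of 0.10. Of the 13, 12 lay in grids 1 and 2, and of the 10, 9 lay in grids 3 and 4. Over all 509 features, 232 of the 296 higher lay in grids 1 and 2. Likewise 179 of the 213 lower lay in grids 3 and 4, so the pattern was not particular to this list. The grid-centred median was -0.09, with 7 higher and 16 lower. The 8 chlorophyll a/b binding proteins, the antenna that gathers light, ranged from -0.35 to 0.37. The highest, DY475489, had pair differences of 0.27, 0.69, 0.60, 0.06 and 0.25 (mean 0.37, SE 0.17, limma adjusted p = 0.713, grid-centred 0.15). Of 10 carbon fixation and plastid metabolism features 8 were higher with a median of 0.13, but 4 were higher after grid centring, with a median of -0.03. Carbonic anhydrase DY475213, which speeds the supply of carbon dioxide, differed by -0.44 (SE 0.21, limma adjusted p = 0.713) and kept -0.40 after grid centring. Of 13 plastid ribosome features 7 were higher, and 5 after grid centring. Plastid 16S rRNA DY475146 differed by 0.70 (SE 0.38, grid-centred 0.49) and plastid ribosomal protein S7 DY475238 by 0.32 (SE 0.15, grid-centred 0.11). The pair differences of DY475146 were 1.71 and 1.04 in set 1 and -0.67 and 0.73 in set 2.

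Cytosolic ribosomal proteins and translation factors had 15 of 26 features higher, with a median of 0.10. Of these 15, 14 lay in grids 1 and 2, and all 11 lower features lay in grids 3 and 4. Over all features these counts were 232 of 296 and 179 of 213. The grid-centred median of the list was -0.01 with 12 higher and 14 lower. S28 ribosomal protein DY475499 was higher in 5 of 5 pairs with a mean of 0.26 (SE 0.15) and a grid-centred value of 0.04. Nuclear rRNA features were lower for 8 of 11, with a median of -0.12 and a grid-centred median of -0.14. The 18S rRNA EB085065 differed by 0.33 (SE 0.16, grid-centred 0.11), whereas the 26S rRNA DY475153 differed by -0.58 (SE 0.33, grid-centred -0.72).

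Respiratory chain, NADH dehydrogenase and ATP synthase features, a list that also holds NADH-plastoquinone oxidoreductases, were lower for 8 of 10, with a median of -0.09. Of these 8, 7 lay in grids 3 and 4, as did 179 of the 213 lower features over the whole array. After grid centring 6 of 10 were lower, with a median of -0.03. Ubiquitin-cytochrome C reductase subunit DY396401 differed by -0.51 (SE 0.22, 3 pairs, limma adjusted p = 0.713, grid-centred -0.40). The ubiquitin and proteolysis list had 11 of 24 features higher, with a median of -0.06, and 9 after grid centring. Its 16 grasspea ubiquitin and polyubiquitin cDNAs, whose protein tags others for destruction, ranged from -0.61 to 0.59, 9 higher and 7 lower, and near-identical repeats of this kind may share target sequence. Single pair differences among them reached -1.89 and 1.83. Cell wall features were higher for 14 of 16, with a median of 0.15, and for 10 of 16 after grid centring, with a median of 0.06. Beta glucosidase DY475415, which frees glucose from glycosides, differed by 0.44 (SE 0.21, grid-centred 0.23). The extensin-like protein CV793587, of a family of structural wall proteins, differed by 0.44 as well (SE 0.22, grid-centred 0.24). Kinase and signalling features were higher for 7 of 10 with a median of 0.08, and for 6 of 10 after grid centring. Post-floral and seed inhibitor features were higher for 3 of 4, and for 2 of 4 after grid centring, with PPF1 DY475509 at 0.33 (SE 0.18, grid-centred 0.11).

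**Figure D4:**
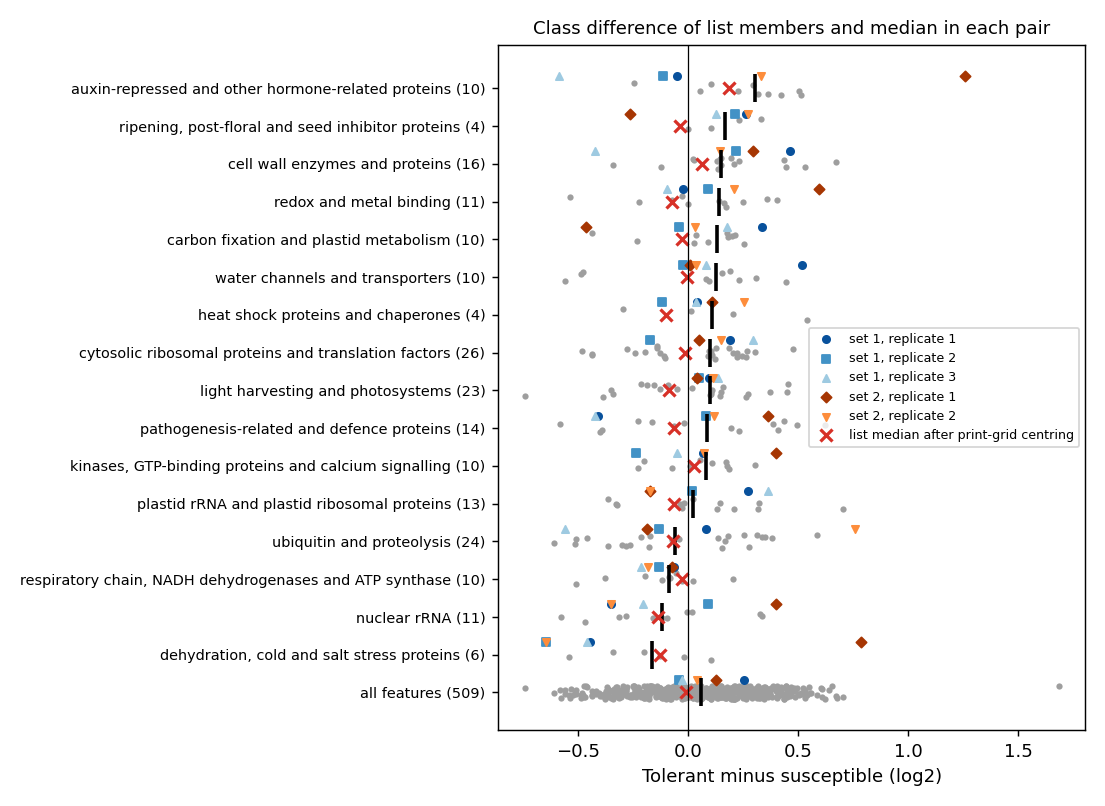
Tolerant minus susceptible difference (log2) of the tested members of each list (grey points, number tested in brackets), with the list median (black tick), the median in each pair (coloured symbols) and the list median after print-grid centring (red cross). Most list medians lie within 0.2 of 0, and the pair medians of most lists lie on both sides of 0.

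The highest of the list medians belonged to hormone-related features, most of them auxin-repressed proteins, known from dormant and slow-growing tissue. Of 10 hormone-related features 9 were higher in the tolerant class, with a median of 0.31 and a grid-centred median of 0.18. The list median was 1.26 and 0.33 in replicates 1 and 2 of set 2. In set 1 it was below 0 in every pair, at -0.05, -0.11 and -0.59. Of the 10, 7 were auxin-repressed proteins, grouped after their values were seen, 2 from chickpea and 5 from grasspea, and these may share target sequence, as may be so for any family printed several times. All 7 were higher in Tolerant2 than in Susceptible2, by 0.71 to 1.05, and the smallest limma adjusted p in set 2 was 0.795. In set 1 only DY396292 (-0.0097), DY475137 (-0.051) and DY475078 (-1.08) had a difference, since the others had fewer than 2 complete pairs there. DY475137 had a log2 signal of 15.52 and 15.33 in Tolerant2 against 14.43 and 14.46 in Susceptible2. In set 1 the same transcript had 13.93, 13.65 and 14.79 against 13.98, 13.59 and 14.94, so that the replicates of Tolerant2 stood above those of Susceptible2 and the others overlapped. DY475078 differed by -0.48, -1.51 and -1.26 in set 1 and by 2.08 and -0.08 in set 2. In leaf control channels all 6 that were measured were higher in the tolerant class, by 0.36 to 0.76, with a smallest limma adjusted p of 0.814. In the cold channels of flowers 6 of the 7 were lower in the tolerant class, with differences of -1.01 to 0.11. The AP2/EREBP1 domain transcription factor CV793594, of a family that includes regulators of cold-induced genes, differed by 0.42 (SE 0.20, limma adjusted p = 0.713). Its grid-centred value was 0.20.

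The class difference was next taken in each genotype set. The sets also differed in quantification period, so a gap between genotype sets and a gap between periods cannot be told apart. Tolerant1 against Susceptible1 gave 0 called of 457 features (0%) by limma, with 44 at an unadjusted p under 0.05 (9.63%), 28 higher (6.13%) and 16 lower (3.5%), and a smallest adjusted p of 0.391. Tolerant2 against Susceptible2 gave 0 of 543 (0%), with 24 at that threshold (4.42%), 24 higher (4.42%) and 0 lower (0%), and a smallest adjusted p of 0.795. The difference between the sets gave 0 of 448 (0%), with 31 (6.92%), 4 of them positive for set 1 minus set 2 (0.893%) and 27 negative (6.03%), and a smallest adjusted p of 0.395. A mean shift of at least 0.5 in the same direction in both sets was shown by 4 of the 448 features (0.893%), all lower in tolerant flowers. These were DY475285, DY396276, the unclear DY475438 and the leucine-zipper protein CV793601, and they were picked out after their values were seen. The pair differences of DY396276 were -0.31 and -0.76 in set 1 and 0.13 and -1.41 in set 2. Its shift in set 2 thus came from replicate 2. DY475285 and DY396276 lay in print grid 4, and grid centring took their class differences from -0.74 and -0.59 to -0.50 and -0.34. No feature was higher by 0.5 or more in both sets. In 16 features (3.57%) the tolerant channel was lower by 0.5 or more in set 1 and higher by 0.5 or more in set 2, and 0 features had the reverse pattern. The median of these 16 was 1.42 in replicate 1 of set 2 and 0.29 in replicate 2.

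Class 10 pathogenesis-related protein CV793610, a small protein induced by infection, had the widest gap between sets among the 448 features and was chosen after its values were seen. Its log2 signal was 10.96 and 10.45 in replicates 2 and 3 of Tolerant1 against 13.90 and 10.90 in Susceptible1. In set 2 it was 13.45 and 12.30 in Tolerant2 against 11.27 and 11.34 in Susceptible2. The difference was -1.69 in set 1 and 1.56 in set 2, a gap of -3.26 (SE 0.87, limma adjusted p = 0.472). In set 1 it came mostly from 1 high channel, Susceptible1 replicate 2. DNAJ-like DY475488 had 13.76, 12.86 and 14.98 in Tolerant1 against 13.77, 13.45 and 15.12 in Susceptible1, and 15.46 and 13.69 in Tolerant2 against 12.83 and 12.89 in Susceptible2. The difference was -0.25 in set 1 and 1.71 in set 2, a gap of -1.96 (SE 0.56, limma adjusted p = 0.472). Grid centring left these gaps at -3.25 and -1.996.

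**Figure D5:**
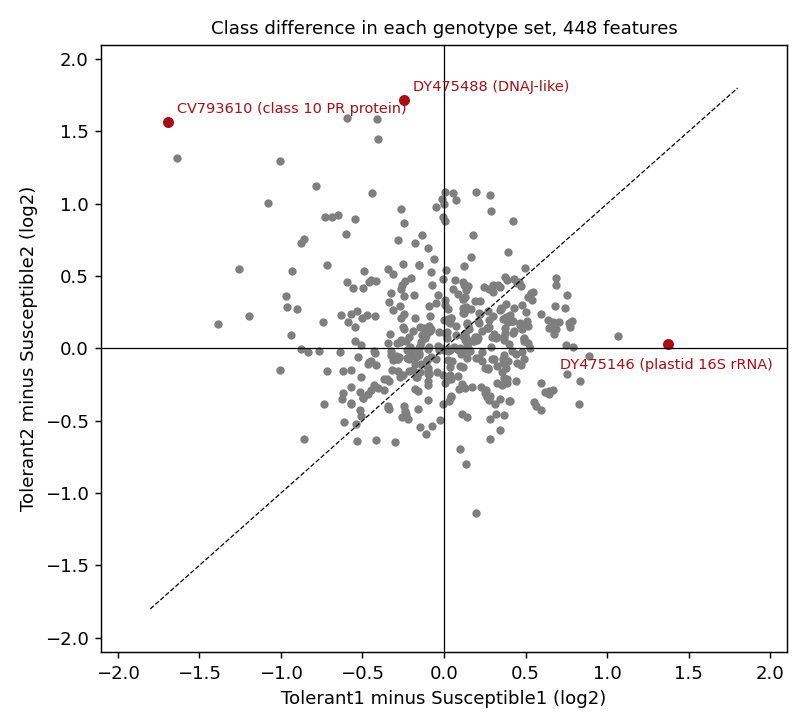
Class difference (log2) of 448 features in genotype set 1 (Tolerant1 minus Susceptible1, horizontal) and genotype set 2 (Tolerant2 minus Susceptible2, vertical), with a dashed line where both are equal. Points with differences beyond 1 lie in one set only or in opposite directions, such as CV793610 and DY475488.

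The same contrast was then read in the other channels. In cold channels of flowers, 0 of 574 features (0%) were called by limma, with 24 at an unadjusted p under 0.05 (4.18%), 6 higher (1.05%) and 18 lower (3.14%) in the tolerant class. In control channels of leaves, 0 of 490 (0%) were called, with 33 (6.73%), 7 higher (1.43%) and 26 lower (5.31%). The class difference in flowers minus that in leaves gave 0 of 471 (0%), with 30 (6.37%), 29 positive (6.16%) and 1 negative (0.212%). The median of this contrast was 0.11. Its smallest limma adjusted p was 0.624, so no transcript was shown to differ between classes by another amount in flowers than in leaves.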

How the data were processed

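Control RNA of flowers was labelled in 1 dye per slide, and each deposited file held 1 channel. Per the file headers the deposited values were spot intensity: the mean signal and local background of each spot, with flags, not yet normalized. The authors' own transformations were not applied. Feature names came from the study's array description, since the files gave positions only.

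Flagged spots and 12 control features were left out. Intensity was background corrected (normexp, offset 50), averaged over spots as log2 and quantile scaled with limma 3.58.1 in R 4.3.3, and tested with the pair as a block and Benjamini-Hochberg adjustment at 0.05. Features needed 3 complete pairs, with both genotype sets represented. Signal of at least 2 times background counted as above background. Same-numbered channels deviated together from their genotype means at r = 0.55, 0.73 and 0.66 in the 3 pairs of set 1. In set 2, where 2 replicates give both pairs the same value, r was 0.13, and the level of Tolerant2 replicate 2 correlated at 0.965 with Susceptible2 replicate 1 and at 0.945 with its own number, so the pairing was weak there. The fit was run on simulated data with independent noise. These data held no print-grid pattern in the class difference and no spread between genotypes, so the run could not test the fit against either. The number of channels limits the precision.

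Features were named by rule: any called feature, the 10 with the smallest p in each direction among those with 1 sign in all 5 pairs, the 2 members of each list with the smallest p, and actin. Others, among them DY475414 and DY475297, were chosen after their values were seen. The comparison and the lists were chosen with earlier results of these data known. Alternatives changed the background correction, scaling, flags, dye, filters, block and replicates. Sequences of the features were not used here.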

Additional observations from a re-analysis of the deposited data

Results flagged for a closer look

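Among 180 groups of 4 or 5 values examined, 11 values stood far from the rest of their group, where chance gives about 1 in 20 groups. No cause was tested. The pair difference of the unknown transcript CA0820 was -0.94 in replicate 2 of set 1, against -0.34 to -0.12 in the other pairs. In tolerant channels, replicate 2 of Tolerant1 had 14.67 for disease resistance response protein DY396276, against 11.67 to 12.09, and its paired susceptible channel was high too (14.98). It had 14.76 for the RNA binding protein DY475297, chosen after its values were seen, against 11.80 to 12.39, with 13.74 in the paired channel. Replicate 2 of Tolerant2 had 13.16 for glucosyltransferase DY475498, against 11.76 to 12.02, with 13.68 in the paired channel.

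In susceptible channels, replicate 2 of Susceptible1 had 13.90 for class 10 pathogenesis-related protein CV793610, against 10.90 to 11.34. Replicate 2 of Susceptible2 had 12.10 for beta glucosidase DY475415, against 11.52 to 11.57, and 12.30 for endoxyloglucan transferase DY475207, against 11.03 to 11.24. Replicate 1 of Susceptible2 had 13.75 for polyubiquitin DY396378, against 12.19 to 12.60. Of the list medians, dehydration, cold and salt stress features stood at 0.78 in replicate 1 of set 2, against -0.65 to -0.45. Post-floral and seed inhibitor features stood at -0.27 in the same pair, against 0.13 to 0.27, and water channels and transporters at 0.51 in replicate 1 of set 1, against -0.03 to 0.08.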

How the results depend on the processing

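The class difference in control flowers gave 0 called features in all 33 alternatives. The lowest adjusted p was 0.0885, from the paired t-test, and 0.503 where 1 pair or channel was left out. The count at an unadjusted p under 0.05 ran from 1 to 67, and from 16 to 37 with 1 pair left out. Without the replicate block it was 6 with the genotype set as covariate and 1 with none, with 0 called in both. Centring within print grids and leaving out replicates 1 and 2 of set 1 together were added after the data had been seen. With control RNA in Cy3 only, 1 feature was called in set 1 (DY396387) and 3 in set 2, which then rested on 1 pair. Counting the copied replicate 3 gave 2 calls in set 2 and 1 between sets, where a copy enters as a replicate. Leaving out 1 pair or channel left 0 called in both sets and between them.

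Of 1690 values of 54 named features 1674 kept their direction. With flagged spots kept, the direction turned for DY475096 (0.026), DY475153 (0.10), DY396413 (-0.15) and actin DY475300 (-0.10). Print-grid centring turned DY475096 (0.0081), DY475278 (-0.0087), CV793609 (0.0145) and DY475300 (-0.0709). Median centring turned EB085057 (0.0433) and, in leaves, DY475285 (0.0072). Cy3 alone turned the unknown DY475414, chosen after its values were seen (0.0921), and, in cold channels, DY396360 (-0.13) and EB085024 (0.0381). With no replicate block, DY475285 in leaves was 0.0847 with the covariate, 0.18 without and 0.017 with genotype as a random block. With 1 channel left out and no block, CV793609 reached 0.0923, DY475153 0.15, DY475300 -0.0231, DY475414 0.0319 to 0.0363, DY475297 -0.0867 and DY475488 in set 1 0.24 to 0.25. With 1 pair left out, cold channels gave -0.0029 to 0.35 for DY475425 and -0.0784 to 0.113 for DY396360, the lower values without replicate 3 of set 1, and DY475078 in set 2 was -0.0777 without replicate 1 and 1.96 without replicate 2. The cause was not tested. Of 561 list medians 527 moved by less than 1 SD of the pair medians.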
